A study of Mus musculus with 8 samples.

Results

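Trp53, its regulators and its known transcriptional targets were described in leukaemia cells in which Trp53 had been deleted by design. The list holds 33 genes, Trp53 itself, genes that control p53 and genes that p53 is known to switch on, without members of the Bcl2 family. They were taken by gene symbol, and each had 1 row among the 18860 genes of the deposited tables. The 8 libraries, of 2 genotypes, came from total RNA of leukaemia cells that had been taken from the marrow of moribund mice of strain C57BL/6. In the 11B3-deleted group (11B3fl/p53fl;shNf1;shMll3;Vav1-Cre, n = 4) 1 chromosome 11 loses its 11B3 segment, Trp53 included, and its partner has a floxed Trp53 instead. In the p53-loss-only group (p53fl/fl;shNf1;shMll3;Vav1-Cre, n = 4) both Trp53 copies are the floxed allele. All 8 leukaemias thus share Vav1-Cre, a recombinase expressed in blood-forming cells, and hairpin RNAs against Nf1 and Mll3. The labels speak of lines without tying each to a mouse. The p-values here thus compare a difference only with the spread between these libraries, which may not be independent animals. Cells of the marrow in which Vav1-Cre is not active keep an intact Trp53. No leukaemia with p53 was analysed here, so the values give levels in p53-deficient cells and do not measure how much p53 adds.

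The p53 protein is a transcription factor that is kept scarce in unstressed cells, because Mdm2 tags it for destruction and Mdm4 holds it inactive. DNA damage or oncogene activity stabilises it, and it then binds DNA as a tetramer and raises genes that halt the cell cycle, repair DNA, restrain growth or start cell death. Mdm2 is itself a target, which closes a feedback loop. Many of these genes also answer to other transcription factors.

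Depth ran between 30591456 and 35719495 reads for 11B3-deleted libraries and between 30502718 and 33365364 for p53-loss-only libraries. Unless a level per kilobase is named, a value is the deposited one, reads scaled for library size plus 1, and 4 values in a row follow replicates 1 to 4. On this scale 3 reads correspond to between 3.663 and 4.29. The label acute myeloid cells was set beside 16 myeloid markers. All had reads in every library, but so did the markers of every other cell type below, so this does not check the label. The summed level of the myeloid markers was 319037 to 1094087 in 11B3-deleted libraries and 515463 to 775006 in p53-loss-only libraries. Erythroid markers (9 genes) summed to 7053 to 148613 against 769 to 29299, and all 9 had a higher mean log2 value in the 11B3-deleted group (median log2 difference 2.14), none past the threshold. The highest sum, in 11B3-deleted replicate 1, was mostly Car1 (118943.5), while Hbb-b1, Hba-a1 and Slc4a1 were highest in p53-loss-only replicate 2. B cell markers (7 genes) summed to 6664 to 84738, with the highest sum in 11B3-deleted replicate 3, against 8727 to 16485. T cell markers (7 genes) summed to 237 to 811 against 349 to 869, and megakaryocyte markers (5 genes) to 313 to 2204 against 477 to 1694. Markers of stroma and endothelium (9 genes) summed to 2762 to 16253 against 5354 to 8485. The highest of these sums in each group were mostly Pecam1, at 12380.8 in 11B3-deleted replicate 2 and 6911.3 in p53-loss-only replicate 3. In that p53-loss-only library Cxcl12, Lepr, Cdh5 and Kdr were at their lowest of the 8 libraries, but Col1a1, Col1a2, Col3a1 and Pdgfrb were not. The stroma and endothelium sums thus do not give the amount of stroma. None of these markers was at 0 in any library, and their part in the results below was not tested. In bulk RNA, fewer cells of a type and less RNA per cell cannot be told apart.

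Promoters of 4 members are printed, Trp53 as the deleted gene and Cdkn1a, Mdm2 and Ccng1 as targets. Cdkn1a was far more variable over the leukaemias than the others. The p53 consensus motif unit, a self-complementary run of 10 bases of which p53 binds a pair, was searched in RefSeq promoter windows (GRCm38.p6, 250 bases before to 50 after each start). Of the 33 members 27 matched a window by symbol or current symbol, and 10 of them (37%) held at least 1 unit, against 9.55% of all 27025 genes with a window. A match describes letters in these windows and does not show binding. The windows are printed up to the start site, 5′ to 3′, with the motif units in capitals. Windows of these genes without a unit before the start were left out, so every printed window holds one by selection.
Cdkn1a (chr17:29090729-29090978, plus strand): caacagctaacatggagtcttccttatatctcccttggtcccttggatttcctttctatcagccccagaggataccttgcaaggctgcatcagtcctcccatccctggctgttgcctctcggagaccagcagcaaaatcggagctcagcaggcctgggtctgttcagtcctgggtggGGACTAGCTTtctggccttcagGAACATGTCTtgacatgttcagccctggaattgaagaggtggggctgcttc
Mdm2 (chr10:117710759-117711008, minus strand): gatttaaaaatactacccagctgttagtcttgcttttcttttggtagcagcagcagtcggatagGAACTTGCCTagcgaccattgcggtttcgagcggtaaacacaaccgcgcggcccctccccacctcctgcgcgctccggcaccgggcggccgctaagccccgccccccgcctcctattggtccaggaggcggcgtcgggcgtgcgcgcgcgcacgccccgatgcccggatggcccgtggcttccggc
Ccng1 (chr11:40755287-40755536, minus strand): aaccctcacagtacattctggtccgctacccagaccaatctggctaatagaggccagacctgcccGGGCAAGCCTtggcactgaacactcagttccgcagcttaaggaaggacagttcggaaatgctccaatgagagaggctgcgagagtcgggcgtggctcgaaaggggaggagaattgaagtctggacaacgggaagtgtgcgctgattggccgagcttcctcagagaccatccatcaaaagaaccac
Trp53 (chr11:69580109-69580358, plus strand): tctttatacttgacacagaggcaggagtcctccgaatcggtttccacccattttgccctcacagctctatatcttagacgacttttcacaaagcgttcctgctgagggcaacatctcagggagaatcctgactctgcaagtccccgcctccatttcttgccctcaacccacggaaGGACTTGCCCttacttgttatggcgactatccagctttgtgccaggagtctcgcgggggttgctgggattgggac
Cdkn1a is the member with 2 units in 1 window, at the upstream one of its start sites. Gadd45a, Aen, Ckap2, Ei24, Sesn1 and Polk also held a unit. 9030617O03Rik was matched as Dglucy. Ptprv, Perp, Zmat3, Tnfrsf10b, Rrm2b and Trp53inp1 had no matched window.

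RNA of most p53 targets was well detected in these p53-deficient leukaemias, and for no gene of the list did the genotype difference pass the test against the spread between libraries. Of the 33 members 31 reached 10 in 4 or more libraries and were tested, and 0 passed the threshold in either direction (limma with Benjamini-Hochberg adjustment over all genes, smallest adjusted p = 0.996; 0.0136% of the 14679 genes tested passed). At an unadjusted p under 0.05 there were also 0 members, against 3.56% of all genes (1.18% higher and 2.38% lower). The 4 libraries of a genotype lay apart from the other 4 in 0 members, against 2.15% of all genes (0.913% higher and 1.23% lower). With edgeR and DESeq2 on the recovered reads the count of members was 0 as well, against 0.00681% and 0.395% of all genes. Mean log2 values were higher in the 11B3-deleted group for 16 members and lower for 15, with a median log2 difference of 0.05 beside 0.01 over all genes tested. With a library left out the split ran between 13 higher and 17 lower, without 11B3-deleted replicate 2, and 20 higher and 11 lower, without 11B3-deleted replicate 1. For 17 of the 31 members the 95% interval of the log2 difference lay within 1 in either direction, and for the other 14 the libraries do not bound the difference that closely.

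**Figure D1:**
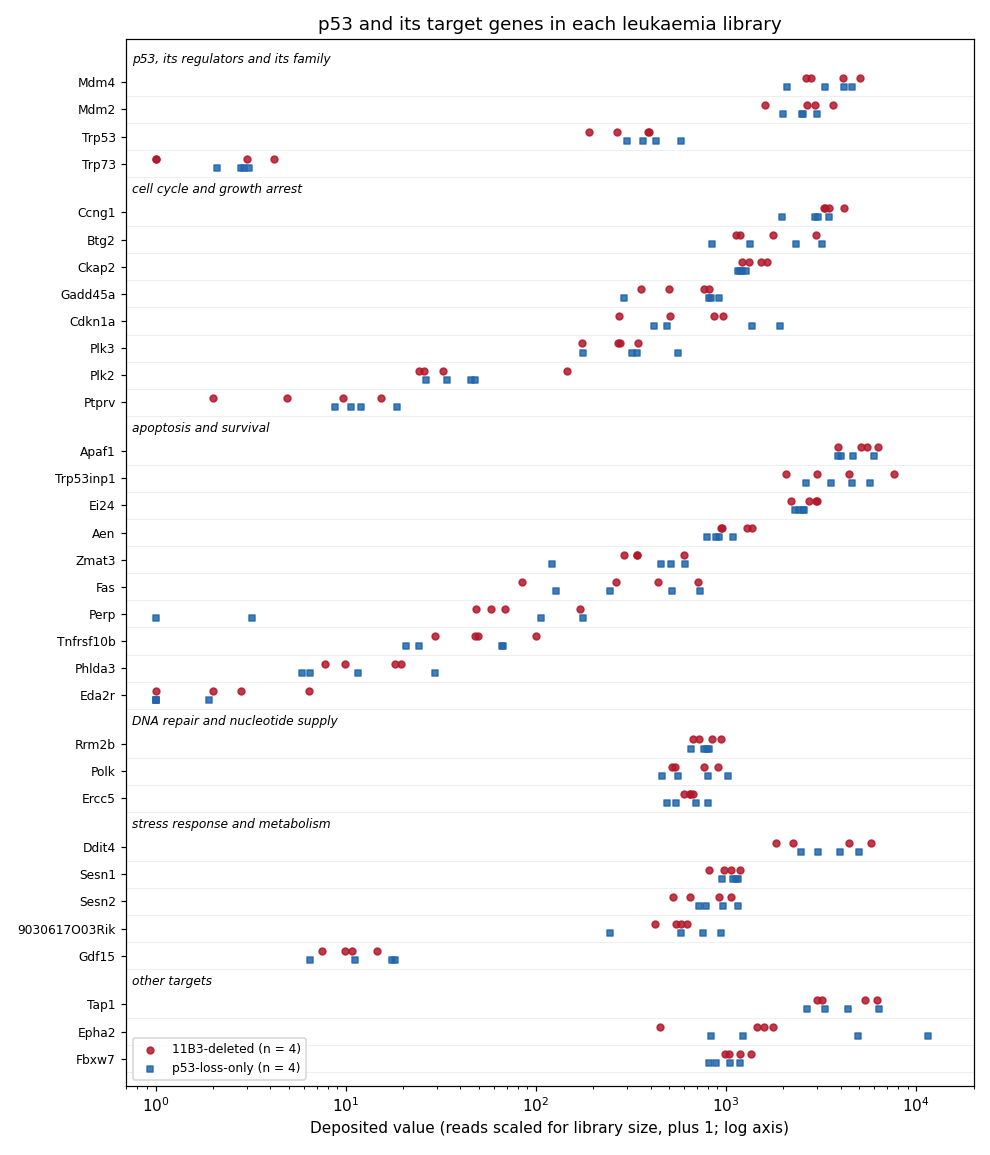
Deposited values of all 33 members (horizontal log axis, reads scaled for library size plus 1) in each of the 4 11B3-deleted libraries (circles) and the 4 p53-loss-only libraries (squares), by role. The groups overlap in every member; Epha2 reaches 11487 and Perp falls to 1 in p53-loss-only libraries.

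**Figure D2:**
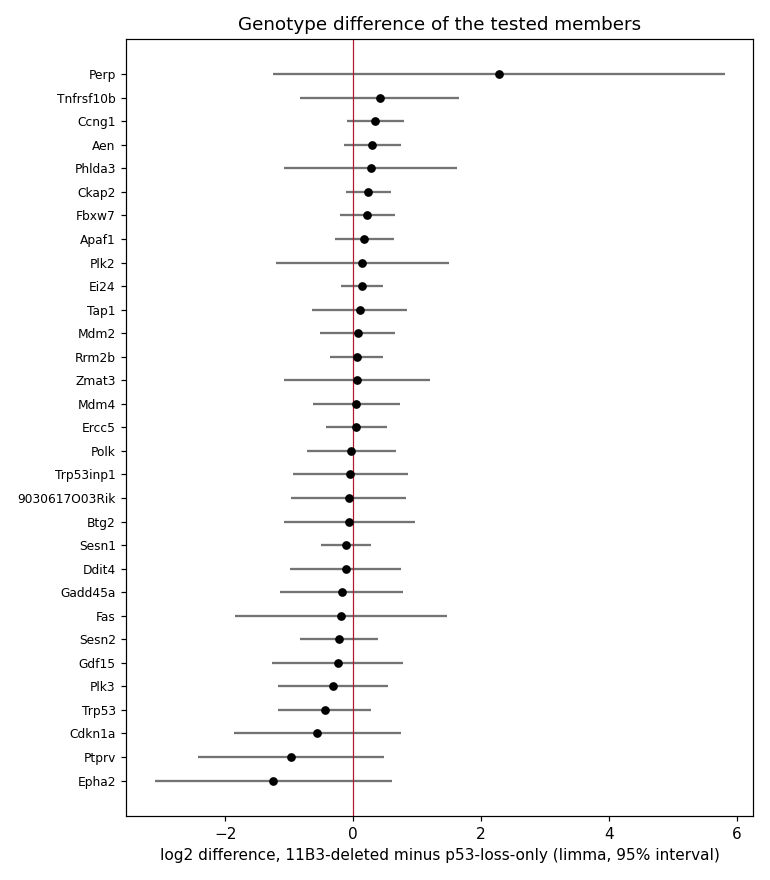
Log2 difference (11B3-deleted minus p53-loss-only) of the 31 tested members, with limma's 95% interval as a bar. Every interval includes 0, and that of Perp is the widest, from -1.26 to 5.81.

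Trp53 RNA was detected in every library although the gene was deleted by design. It stood at 392.5, 387.3, 266.6 and 189.2 in 11B3-deleted leukaemias, compared with 425.3, 577.1, 367.2 and 300.2 in p53-loss-only leukaemias. Each 11B3-deleted library lay below the median of the p53-loss-only libraries, but the groups overlapped. The log2 difference was -0.45 (SE 0.32, 95% interval -1.18 to 0.27, adjusted p by limma = 0.996). Per kilobase of exon Trp53 averaged 89.54 scaled reads over the 8 libraries, a level above that of 35.6% of the tested genes with a known length. Exons outside the floxed part can still be counted, and the tables give no exon-level values, so these reads do not measure how completely the allele was recombined.

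The inhibitors of p53 had more scaled reads per kilobase than Trp53. The length of Trp53 counts all its exons, also those deleted by design, so this does not compare intact genes. Mdm2, the ubiquitin ligase of p53, averaged 512.5 scaled reads per kilobase, and Mdm4, its partner, 242.5. Mdm2 was at 1601.2, 3625.4, 2664.6 and 2928.1 in 11B3-deleted leukaemias, compared with 1979.9, 2521.1, 3018.6 and 2507.8 in p53-loss-only leukaemias. The 11B3-deleted libraries held both the lowest and the highest value, and the log2 difference was 0.07 (SE 0.26, 95% interval -0.52 to 0.65). Mdm4 was at 2632.1, 5037.3, 2778.9 and 4120.1 against 3316.1, 4166.1, 4577.9 and 2081.8, with a log2 difference of 0.05 (95% interval -0.63 to 0.73). Trp73, which encodes the p53 relative p73, gave 2, 3, 0 and 0 reads in the 11B3-deleted libraries, and 2, 2, 1 and 2 reads in p53-loss-only leukaemias. No library exceeded 3 reads of Trp73, so no fold is given.

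Of the genes of growth arrest, Cdkn1a, the cyclin-dependent kinase inhibitor through which p53 stops the cell cycle, varied most among the abundant ones. Cdkn1a was at 273.4, 866.2, 508.9 and 956.9 in 11B3-deleted leukaemias, compared with 1375, 489.1, 1910 and 419.5 in p53-loss-only leukaemias. The extremes lay in different genotypes, 6.99-fold apart, yet the p53-loss-only libraries were themselves split between a pair above and a pair below most 11B3-deleted libraries. The log2 difference of -0.56 (SE 0.58, 95% interval -1.86 to 0.75, adjusted p by limma = 0.996) did not pass, and with 1 library left out it lay between -0.9 and -0.17, nearest 0 without p53-loss-only replicate 3 (-0.17) or 11B3-deleted replicate 1 (-0.19). Ccng1, cyclin G1, a target that recruits phosphatase to Mdm2, was steadier, at 4187.4, 3305.8, 3489.4 and 3265.4 against 3483.1, 2924.8, 3030.7 and 1964.7. Ccng1 had the smallest p of the members (log2 difference 0.34, SE 0.2, unadjusted p = 0.115, limma adjusted p = 0.996), and all 4 11B3-deleted libraries lay above the p53-loss-only median. Its difference was 0.18 without p53-loss-only replicate 4 and up to 0.45 with another library left out. Ckap2, a spindle protein, likewise lay above that median in all 4, at 1532.8, 1207.3, 1632.3 and 1315.4 against 1147.8, 1276.2, 1178.7 and 1209.7 (log2 difference 0.23, 95% interval -0.12 to 0.59).

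Ptprv, a receptor-type phosphatase gene, was near the floor at 4.9, 9.6, 2 and 15.2 (4, 8, 1 and 16 reads) for 11B3-deleted against 8.8, 12, 18.5 and 10.6 (8, 12, 16 and 9 reads) for p53-loss-only libraries. Its log2 difference was -0.97 (SE 0.64, 95% interval -2.42 to 0.48), and -0.42 without 11B3-deleted replicate 3. Plk2, a polo-like kinase, was at 32.2, 25.8, 145.4 and 24.1 against 45.7, 47.8, 26.2 and 34. A single library, 11B3-deleted replicate 3, stood above the rest for Plk2, the library in which B cell markers were also highest; their part in this value was not tested. Gadd45a, a stress sensor that slows entry into mitosis, was at 763.5, 355, 501.1 and 814 against 919.6, 834, 291.6 and 814.6. E230016M11Rik on the other strand overlaps 19.1% of the exon bases of Gadd45a, and the sources used here do not say whether strand was used in counting. Btg2, an antiproliferative cofactor of transcript decay, ranged from 1124.5 to 2965 against 843.3 to 3193.7, and Plk3 from 175 to 341.7 against 175.8 to 556.9, with log2 differences of -0.07 and -0.31. In all, 3 of the 8 arrest genes had a higher mean and 5 a lower one, none past the threshold, and without 11B3-deleted replicate 2 the split was 5 higher and 3 lower.

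Among the genes of cell death and survival, 9 of 10 were tested, 7 with a higher mean and 2 with a lower one, none past the threshold. Perp, a membrane protein of desmosomes that p53 induces during apoptosis, differed most between libraries. Its values were 68.4, 170, 48.5 and 57.8 for the 11B3-deleted libraries (69, 157, 49 and 64 reads), against 1, 105.6, 3.2 and 176.7 in p53-loss-only leukaemias (0, 114, 2 and 165 reads). The p53-loss-only group held both the libraries almost without Perp and, in replicate 4, the library with the most, while all 4 11B3-deleted libraries lay between. The log2 difference of 2.27 (SE 1.57, 95% interval -1.26 to 5.81, adjusted p by limma = 0.996) depends on the constant of 1 in the values without reads and is no measure of a fold; with 1 library left out it lay between 0.95 and 3.44.

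Aen, an exonuclease of apoptotic DNA breakdown, had values of 1359, 944.8, 1292.1 and 954.2 with 11B3 deleted against 791.4, 922.1, 887 and 1084 with p53 loss only. The log2 difference of Aen was 0.29 (SE 0.2, 95% interval -0.15 to 0.74), with all 4 11B3-deleted libraries above the p53-loss-only median and the groups overlapping through p53-loss-only replicate 4. Fas, the receptor of Fas ligand, was at 261.7, 437.9, 84.4 and 706.6 against 727.3, 245.9, 516.4 and 126.7, an 8.62-fold range without a genotype split (log2 difference -0.19, 95% interval -1.85 to 1.46). Tnfrsf10b, the mouse TRAIL receptor, was lower in level, at 47.9, 49.4, 99.9 and 29.4 against 24.3, 67.1, 20.7 and 66. Eda2r, a receptor of ectodysplasin, gave 0, 5, 1 and 2 reads against 0, 1, 0 and 0 reads and was not tested.

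The core apoptosis factor Apaf1, the scaffold of the apoptosome, was abundant, at 3852.5, 5503.3, 5121.7 and 6252.8 against 3862.7, 3998.2, 5978.1 and 4618.4 (log2 difference 0.17, 95% interval -0.29 to 0.63). The SD of Apaf1 on the log2 scale, 0.28, exceeded that of 43.4% of the tested genes nearest to it in mean level. Ei24, a protein of the endoplasmic reticulum, had the smallest spread of all members, at 2977.8, 2987.3, 2204.2 and 2716 against 2551.9, 2301.9, 2541.6 and 2430 (log2 difference 0.14, 95% interval -0.2 to 0.47). The highest Ei24 value was 1.36 times the lowest. Trp53inp1, a nuclear stress protein linked to autophagy, ranged from 2065.9 to 7644.8 against 2645.1 to 5706.7, and Zmat3, an RNA-binding regulator of splicing, from 289.8 to 600.5 against 121.3 to 604.1. Phlda3, an inhibitor of Akt, was low everywhere, at 7.8 to 19.4 against 5.9 to 29.4.

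Genes of DNA repair and nucleotide supply had the smallest median SD of the role groups, 0.22 on the log2 scale over the 8 libraries, and none passed the threshold. Rrm2b, the p53-inducible subunit of ribonucleotide reductase, was at 716.6, 938.3, 843.3 and 667.5 against 797.2, 766.1, 656.7 and 808.2 (log2 difference 0.06, SE 0.18, 95% interval -0.36 to 0.47). Ercc5, the endonuclease of nucleotide excision repair, was at 669.8, 601.5, 647.5 and 648.9 against 541.9, 804.7, 692.9 and 489.8 (log2 difference 0.05, 95% interval -0.43 to 0.52). The 11B3-deleted libraries lay inside the p53-loss-only range for Ercc5. Polk, a DNA polymerase that copies past lesions, was at 516.5, 905, 536 and 764.3 against 804, 557, 1023 and 461 (log2 difference -0.04, 95% interval -0.73 to 0.66).

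All 5 genes of stress response and metabolism had a lower mean log2 value in the 11B3-deleted group, with log2 differences between -0.24 and -0.07, none past the threshold. Without 11B3-deleted replicate 1 the split was 2 higher and 3 lower, with a median log2 difference of -0.01 in place of -0.12. Sesn1 and Sesn2 encode sestrins, which restrain mTORC1. Sesn2 was at 911.9, 1062.1, 525.4 and 642.7 against 1147.8, 783.6, 721.4 and 964.7 (log2 difference -0.23, SE 0.27, 95% interval -0.84 to 0.38), and Sesn1 at 810.4, 1175.1, 1060.4 and 974.6 against 1122.5, 1090, 950.6 and 1159.6 (-0.11, 95% interval -0.51 to 0.28). Ddit4, another mTORC1 inhibitor, had the highest level per kilobase of the members, 2048 scaled reads, above 95.4% of the tested genes. It was at 2250.4, 5791.7, 4426.7 and 1832.9 against 3024.7, 3980.7, 2471.5 and 4986.9, without a genotype split. Gdf15, a secreted stress hormone, was the lowest tested member per kilobase with a known length, at 5.925 scaled reads, with deposited values of 10.8, 7.5, 14.6 and 9.9 against 17.5, 11.1, 6.5 and 18. 9030617O03Rik (Dglucy), a D-glutamate cyclase gene, was at 421.8, 581, 625.2 and 544.2 against 753.5, 580.8, 941.8 and 244.9.

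Of the remaining targets, Epha2, an ephrin receptor kinase, had the most negative log2 difference of the members. It was at 1444, 1582.9, 447.8 and 1761 in 11B3-deleted leukaemias, compared with 4936.7, 829.4, 11487 and 1226.7 in p53-loss-only leukaemias. No 11B3-deleted library reached the p53-loss-only median, but replicates 1 and 3 of the p53-loss-only group stood far above all other libraries, and replicate 2 of that group lay below 3 of the 11B3-deleted libraries. The log2 difference was -1.25 (SE 0.82, 95% interval -3.1 to 0.6, adjusted p by limma = 0.996), and with 1 library left out it lay between -1.83 and -0.56. Tap1, the peptide transporter of antigen presentation, was at 3011, 5402.1, 3193.8 and 6180 against 4373.5, 2660.6, 6382.7 and 3307.5 (log2 difference 0.1, 95% interval -0.65 to 0.84). Fbxw7, the ubiquitin ligase receptor for Myc and cyclin E, was at 1351.2, 1179.4, 985.8 and 1032.3 against 807.9, 886.3, 1044.9 and 1178.8 (log2 difference 0.22, SE 0.19, 95% interval -0.21 to 0.65).

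The levels per kilobase covered a wide range. Of the 30 tested members with an exon length in the annotation, 16 lay above the median of the 14134 tested genes with a length. Below Ddit4 came Ccng1 at 912.7, Tap1 at 787.6, Btg2 at 671.8 and Trp53inp1 at 648.8 scaled reads per kilobase. At the other end Gdf15, Phlda3 (8.08), Tnfrsf10b (9.095) and Plk2 (10.39) lay near the low end of the tested genes, at percentiles of 5.61, 7.95, 8.98 and 10.2. Targets with the same textbook role thus stood far apart, such as Ccng1 and Plk2 among arrest genes. The exon lengths come from another build than the one the reads were aligned to, so these levels are approximate.

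**Figure D3:**
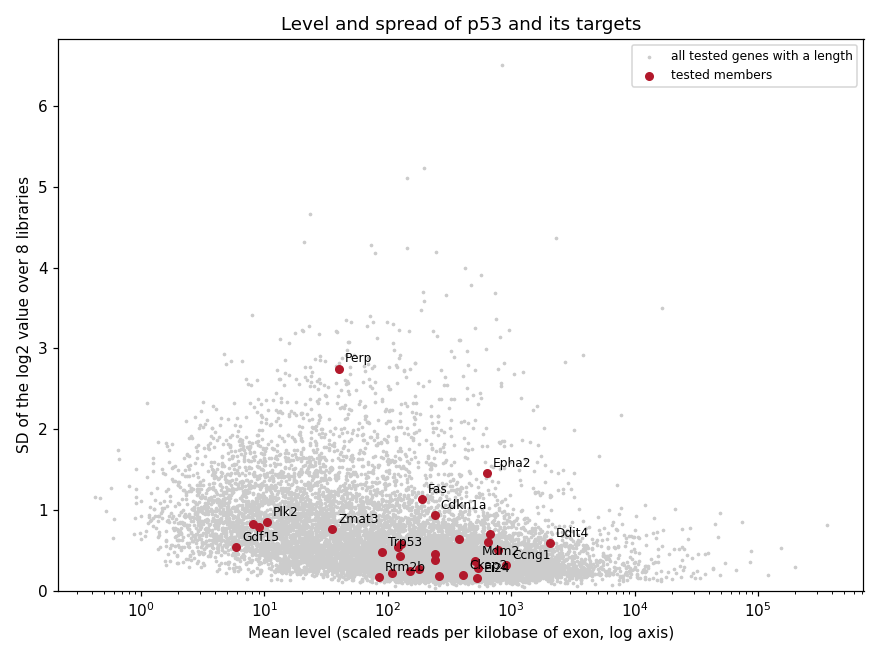
Mean level per kilobase of exon (horizontal log axis, scaled reads) against the SD of the log2 value over the 8 libraries (vertical) for the 30 tested members with a length (red) and all other tested genes with a length (grey). Perp (SD 2.75) and Epha2 (SD 1.46) stand at the top of the members, Ei24 (SD 0.16) and Rrm2b (SD 0.17) at the bottom.

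The members differed widely in how much they varied between leukaemias, although all 8 lack p53 by design. The median SD of the log2 value over the 8 libraries was 0.54 for the members tested and 0.44 for all genes tested. Each member was also placed among the 500 tested genes nearest to it in mean level. Epha2 (SD 1.46) exceeded 99.6% of them, Perp (2.75) 97.2%, Cdkn1a (0.94) 93%, Btg2 (0.7) 92.2% and Trp53inp1 (0.61) 92.2%. Fas (1.14) exceeded 88.6% and Ddit4 (0.59) 89.6%. At the steady end Ei24 (0.16) exceeded 5.8%, Rrm2b (0.17) 6% and Sesn1 (0.18) 9.4%. Trp53 itself (0.48) stood near the middle, at 47.4%. Removing the genotype means changed no member's SD by more than 0.09, which is little for the more variable members. It weighed more for steadier ones such as Ckap2 (SD 0.19 over the 8 libraries, 0.15 within genotypes). These ranks describe the 8 libraries and carry no test.

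A few members had the same 4 highest libraries as Cdkn1a. The 4 libraries with the most Cdkn1a were 11B3-deleted replicates 2 and 4 and p53-loss-only replicates 1 and 3, and these were also the 4 highest for Epha2, Fas, Polk and Tap1. That is 4 of the 30 other tested members (13.3%), against 8.56% of all tested genes. A count this small is not read as a trait of the members. The pattern was noticed after the values were seen and has no test. Perp went against it at its extremes, being nearly without reads in p53-loss-only replicates 1 and 3, where Cdkn1a and Epha2 were highest. Of the 16 myeloid markers, 4 had the same libraries highest (Cebpa, Ctsg, Ly6c2 and Prtn3). Ly6c2, a surface antigen of monocytes, was at 34800.9 and 42049.8 in those 11B3-deleted libraries and 45413.6 and 65402.9 in those p53-loss-only libraries, against 18835.9 to 24036.8 in the other libraries. The other myeloid markers did not share this full set of libraries. Csf1r, Itgam and Elane came near it, being highest in 11B3-deleted replicate 4 and p53-loss-only replicates 1 and 3. Csf1r missed the set narrowly, with 13795.2 in p53-loss-only replicate 2 against 13666.8 in 11B3-deleted replicate 2. S100a8 (10857.6) and S100a9 (14535.4) were lowest in p53-loss-only replicate 3, and Cebpe (2591.9) was highest in 11B3-deleted replicate 3. The part of the myeloid markers in the levels of Cdkn1a, Epha2, Fas, Polk and Tap1 was not tested.

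**Figure D4:**
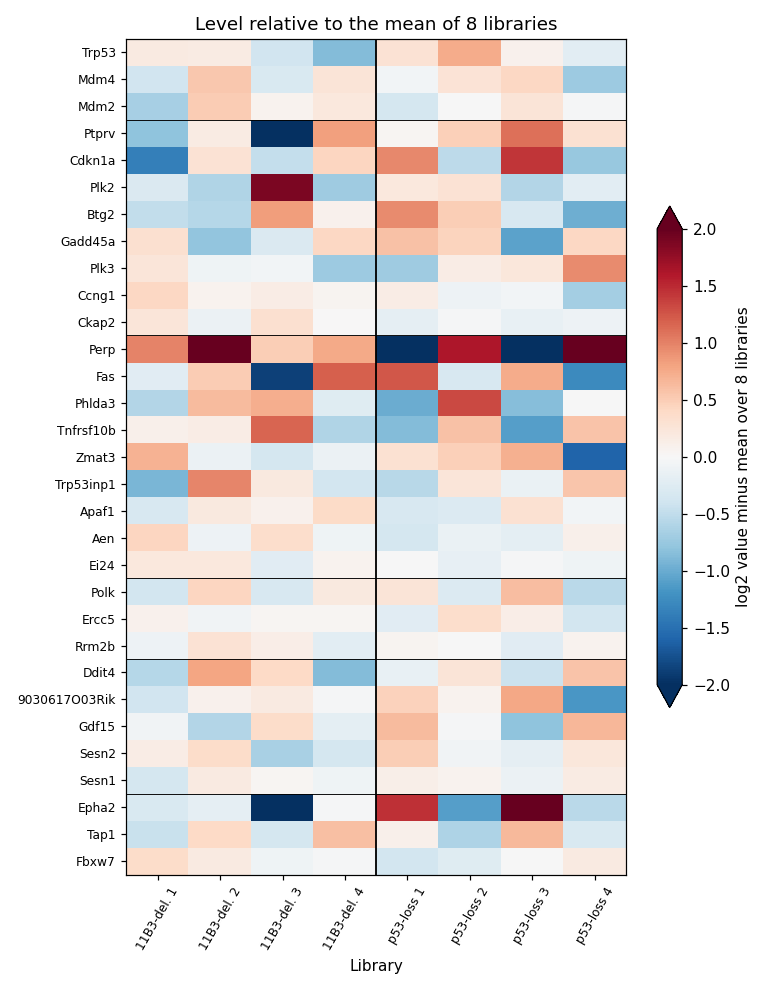
Level of the 31 tested members in each library relative to the member's mean over the 8 libraries (log2 colour scale, clipped at 2 in either direction), with columns for 11B3-deleted replicates 1 to 4 left of the line and p53-loss-only replicates 1 to 4 right of it, and rows by role. The rows of Cdkn1a and Epha2 are reddest in p53-loss-only replicates 1 and 3, where that of Perp is bluest.

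The median of the tested members relative to their means over 8 libraries was -0.23, 0.17, 0.04 and -0.02 on the log2 scale in 11B3-deleted replicates 1 to 4, and 0.05, 0.07, -0.02 and -0.06 in p53-loss-only leukaemias. Over all tested genes the same median stayed between -0.01 and 0.01. The lowest member median, in 11B3-deleted replicate 1, was in the library with the highest erythroid sum, which is mostly Car1 and whose part was not tested.

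Target RNA was then compared with Trp53 RNA across the 8 libraries for the 30 other tested members. Correlations were positive for 18, negative for 10 and 0 after rounding for the other two, with a median Pearson r of 0.05. After Benjamini-Hochberg adjustment across the 30 relations 0 passed (exact permutation test over 40320 pairings, two-sided, smallest adjusted p = 0.997 for r and 1 for rho), and 0 had an unadjusted p under 0.05. Apaf1 came nearest (r = -0.67, exact permutation p = 0.066; rho = -0.71, exact permutation p = 0.0576), and its r was -0.33 without the 2 libraries farthest from the Trp53 median. Cdkn1a had r = -0.07 (exact permutation p = 0.873; rho = -0.14, p = 0.752), which became 0.39 without those libraries. Mdm2 had r = -0.27 (exact permutation p = 0.529; rho = -0.4, p = 0.327), and -0.26 without them. Leaving out the 2 libraries turned the sign of 14 of the 30 correlations. That count includes Gadd45a and Polk, whose r was 0 after rounding with all 8 libraries. The r of Ei24 became 0.75 in place of -0.03, that of Tnfrsf10b -0.78 in place of 0.03 and that of Tap1 0.46 in place of -0.42. Fas kept its sign, at 0.93 in place of 0.04. These correlations rest on those libraries, and each genotype holds 4 libraries, too few for a correlation within it.

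The wider pathway was examined through 79 other genes, of which 75 were tested. With limma 0 of them passed over all genes in either direction, beside 0.0136% of all genes, and 2 had an unadjusted p under 0.05, both lower in the 11B3-deleted group, as were 2.38% of all genes, and both in the 11B3 segment. Rpl26, a ribosomal protein that binds Trp53 mRNA, was at 7612.3, 8081.7, 9189.7 and 6804 in 11B3-deleted leukaemias, compared with 14471.1, 16875.9, 16522.2 and 16016 in p53-loss-only leukaemias. Every 11B3-deleted library lay below every p53-loss-only library (log2 difference -1.02, SE 0.14, limma adjusted p = 0.2), and DESeq2 called Rpl26 over all genes. Wrap53, the telomerase cofactor gene beside Trp53, was at 309.5, 336.8, 506 and 292.1 against 519.5, 727.6, 584.3 and 637.8, also without overlap, as for 1.23% of all genes in that direction (log2 difference -0.8, SE 0.24, 95% interval -1.35 to -0.25, adjusted p by limma = 0.996). The log2 difference of Trp53, -0.45, was smaller in size than that of Rpl26 or Wrap53, with an interval that includes both; the differences between these genes were not tested.

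Outside the interval 73 of the other pathway genes were tested, 52 with a higher and 21 with a lower mean, a median log2 difference of 0.11 beside 0.01 over all genes, and 0 with an unadjusted p under 0.05. Kinases and sensors of DNA damage had a higher mean in 15 of 16, with a median log2 difference of 0.21. With a library left out the median ran from 0.05 (13 of 16 higher), without 11B3-deleted replicate 1, to 0.39 (15 of 16 higher), without 11B3-deleted replicate 2, and it was 0.09 without 11B3-deleted replicate 3. Rad17, a clamp loader at damaged DNA, was at 1595.3, 1240.7, 1122.4 and 1336.7 against 1126.4, 885.4, 1074.5 and 960.5 (log2 difference 0.38, SE 0.17, limma adjusted p = 0.996). The kinase Atr had a log2 difference of 0.28 (SE 0.26), the kinase Dyrk2 0.45 (SE 0.38) and the nuclease Mre11a 0.26 (SE 0.25).

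Proteins that control p53 stability or cooperate with it did not pass either. The ubiquitin ligase Rchy1 and the deubiquitinase Usp7 each had a log2 difference of 0.24 (SE 0.16 and 0.17). Of the cofactors, Brd7 was at 6789.3, 4324.9, 4494.5 and 4343.7 against 4375.4, 3271.6, 4017.5 and 2995.5 (log2 difference 0.43, SE 0.2, limma adjusted p = 0.996). Trp53bp2 had 0.39 (SE 0.21), Ing1 0.23 (SE 0.17) and Ppp1r13b -0.38 (SE 0.26). Among further targets, Xpc, the damage sensor of nucleotide excision repair, was at 2406.6, 4752.1, 4474.2 and 6684.1 against 6227.2, 4814.7, 8661.3 and 9855.6 (log2 difference -0.73, SE 0.33, limma adjusted p = 0.996). Rnf144b, a ubiquitin ligase, had 0.86 (SE 0.46), the epoxide hydrolase Ephx1 -1.07 (SE 0.61) and the xylulose reductase Dcxr -0.54 (SE 0.35). Further targets were split between 16 with a higher and 11 with a lower mean, a split that turned to 9 higher and 18 lower without p53-loss-only replicate 3, 11 and 16 without 11B3-deleted replicate 3, 12 and 15 without 11B3-deleted replicate 4, and 13 and 14 without 11B3-deleted replicate 1. Cofactors had 10 with a higher and 4 with a lower mean, and 7 of each without 11B3-deleted replicate 1.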

How the data were processed

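Each deposited table gives 18860 genes with 1 signal value per gene; the authors used mouse build mm9 and the tools STAR, HTSeq and DESeq, per the submitters' processing notes, which give neither role nor version. The deposited signal values are 1 plus a whole multiple of a step fixed within each library, so reads were recovered as whole numbers (100% of values within 0.02); edgeR on those reads called 1 gene. Depth was 30502718 to 35719495 reads per library.

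Log2 of the deposited value, with the deposited 1 as pseudocount, was fitted with limma 3.58.1 (R 4.3.3) with a mean-variance trend and genotype as the only term, two-sided, on genes reaching 10 in 4 or more libraries (14679), adjusted by Benjamini-Hochberg at 0.05. The pseudocount understates the change of low genes. Alternatives used edgeR 4.0.16, DESeq2 1.42.0, voom, TMM rescaling, other filters, a further constant, a replicate block and each library left out. The fits were tested on simulated data, with pass limits applied only at the lower of the spreads simulated. That does not show how many true differences could be missed in these leukaemias. Exon lengths and symbols came from GENCODE for GRCm38, another build, and promoter sequences from RefSeq (GRCm38.p6). Levels per kilobase use the union of exons. All pairs of libraries differed beyond counting noise (smallest chi-square over its degrees of freedom 86.8).

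The members and gene lists were chosen with earlier results of these data known. Every member is accounted for; values are printed in full for Trp53, Mdm2, Mdm4, Cdkn1a, for the 2 members per role with the smallest p and for the extremes of level and spread, and the 4 genes with the smallest p are named from each pathway list. Other members printed in full were chosen after their values were seen.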

Additional observations from a re-analysis of the deposited data

Results flagged for a closer look

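In 62 groups of 4 libraries (31 tested members in each genotype), 3 held a library far from the other 3 by Dixon's test on the log2 value, about what chance gives at 1 in 20. Plk2 was at 145.4 in 11B3-deleted replicate 3 and at 24.1 to 32.2 in the other 11B3-deleted libraries. Epha2 was at 447.8 in the same library, 11B3-deleted replicate 3, and at 1444 to 1761 in the other 3. Gadd45a was at 291.6 in p53-loss-only replicate 3, against 814.6 to 919.6 in the other p53-loss-only libraries.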

How the results depend on the processing

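The count of members past the threshold was 0 under every alternative run. For all genes it was 2 with limma, 58 with DESeq2, 1 with edgeR, 0 with voom and sample weights, 1 with a minimum value of 50, 1 with a further 5 added, and 0 to 1 with a library left out. For the other pathway genes it was 1 with DESeq2 and 0 otherwise. Members without overlap numbered 0 to 1 with a library left out: Ckap2, Ei24, Ccng1, Gadd45a and Aen in 1 case each. The share of all genes is not given for these settings, so these counts are not read as a result about the members. The replicate numbers do not pair the libraries (correlations of -0.03, -0.217, -0.414 and -0.243 between same-numbered libraries, and none matched its own number best), and with the replicate block 0 members and 0 of all genes passed.

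Differences near 0 changed sign; the cause was not tested. Mdm4 became -0.09 with voom, Trp53inp1 0.05 with edgeR, 0.06 with DESeq2 and 0.07 with voom, and Zmat3 -0.13, -0.11 and -0.32. Leaving out a library moved log2 differences over 0 for 15 members: Mdm2 (-0.1 to 0.3), Mdm4 (-0.18 to 0.2), Btg2 (-0.4 to 0.24), Gadd45a (-0.57 to 0.05), Plk2 (-0.46 to 0.4), Trp53inp1 (-0.39 to 0.24), Phlda3 (-0.02 to 0.51), Zmat3 (-0.47 to 0.3), Fas (-0.65 to 0.4), Polk (-0.22 to 0.16), Ercc5 (-0.07 to 0.17), Rrm2b (-0.03 to 0.13), Ddit4 (-0.41 to 0.15), 9030617O03Rik (-0.47 to 0.18) and Tap1 (-0.09 to 0.33). That of Trp53 stayed between -0.6 and -0.24. The correlation of Cdkn1a with Trp53 became 0.39 without the 2 libraries farthest from the Trp53 median. With the longest transcript as length, 1 member's level percentile moved by over 10, Mdm4 to 67.6. Eda2r, Trp73, Ptprv, Phlda3 and Gdf15 are limited by depth.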
